A study of Mus musculus with 12 samples.

Results

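The genes described here are those of the semaphorin, plexin, neuropilin, Slit, Robo and netrin families, cell-surface and secreted proteins that steer growing axons and migrating cells. They were matched by symbol: every *Sema3* to *Sema7* gene, the plexins, *Nrp1* and *Nrp2*, the Slits and Robos, netrins 1 to 5, the *Unc5* receptors, *Dcc* and *Neo1*. These families were picked with earlier results of these data known, so their shares of called genes are described and not tested. Of 23086 gene symbols 48 matched, 40 of them had at least 30 counts summed over the 12 libraries, and 34 passed the filter on low counts and were tested. The series addressed the genes controlled by LHX1, a transcription factor of the LIM homeodomain type that head formation needs. RNA was sequenced from mouse embryoid bodies, clusters of embryonic stem cells that have begun to differentiate. Both lines were of the A2lox.cre type, in which doxycycline, an antibiotic, turns on a gene inserted at the *Hprt* locus. One line carried a mutant form of FLAG-tagged *Lhx1*, and the sources used here do not give its change. The other line carried the wild-type FLAG-tagged form. Embryoid bodies of each line, differentiated for 2 days, received doxycycline for 16 h or none, giving 4 groups of 3 libraries: induced mutant, uninduced mutant, induced wild type and uninduced wild type. The labels name no deletion of the cells' own *Lhx1* gene, and they do not state whether a line is 1 clone or whether replicates were separate cultures. The p-values therefore measure only the spread between these libraries, which may be technical.

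Semaphorins are ligands, secreted in class 3 and mostly membrane-bound in classes 4 to 7. They act through plexins, large receptors whose intracellular part acts on small GTPases, and many class 3 semaphorins need a neuropilin as co-receptor. Slits are secreted ligands of Robo receptors, and netrin-1 is a secreted ligand of DCC and neogenin, which attract, and of UNC5 receptors, which repel. These proteins are best known from the nervous system and from blood vessels, yet several are also made by early embryonic cells, where they act in adhesion, migration and cell survival.

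Total counts ran from 4289984 to 4850393 per library, so 1 count was worth 0.204 to 0.238 CPM (the depth-scaled count, here on TMM-scaled library sizes, and the unit used below unless stated otherwise). *Lhx1* averaged 248 ± 12.6 CPM in induced and 0.421 ± 0.0124 CPM in uninduced mutant libraries, and 296 ± 9.37 CPM in induced and 2.09 ± 1.13 CPM in uninduced wild-type libraries (SD, n = 3 each), as the labels require. By edgeR's quasi-likelihood test, *Lhx1* was lower in the mutant line with doxycycline, at a log2 difference of −0.25 (SE 0.05, adjusted p = 6.93e-05). Without doxycycline the difference was −2.22 (SE 0.49, adjusted p = 2.68e-04), on 6 counts in mutant and 27 in wild-type libraries. A pair of wild-type libraries stood apart. Induced library 2 had 1.45% of its counts on the ribosomal transcript *Rn45s*, against 0.0884% to 0.265% in the other 11 libraries. Uninduced library 3 had 229 CPM of the hypoxia gene *Bnip3*, against 58.5 and 63.3 CPM in the other uninduced wild-type libraries. Induced wild-type library 3 had 107 CPM of *Bnip3*, against 52.1 and 65.8 CPM in libraries 1 and 2 of its group. It was kept where that pair was left out. All 8 epiblast markers looked for were present in every group and summed to 5155 to 5323 CPM in induced mutant, 5231 to 5429 CPM in uninduced mutant, 4534 to 4653 CPM in induced wild-type and 4843 to 5220 CPM in uninduced wild-type libraries. The 8 neuronal markers summed to 186 to 199, 183 to 191, 171 to 201 and 158 to 170.3 CPM in the same 4 groups. Mesoderm and primitive streak markers summed to at most 3.29 CPM in any library, and *Msgn1* was at 0 in all of them. The 8 hypoxia genes summed to 1117 to 1441 CPM in induced mutant, 1334 to 1519 CPM in uninduced mutant, 735 to 1034 CPM in induced wild-type and 836 to 1643 CPM in uninduced wild-type libraries.

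Guidance genes were a small but present part of these transcriptomes, holding 0.103% of all counts. Levels of different genes are compared here per kilobase of merged annotated exons, which makes genes with many long transcript forms look lower. The highest was *Unc5b*, a netrin receptor that can also signal cell death, at 28.8 ± 1.35 CPM per kilobase in induced mutant, 28.8 ± 0.847 in uninduced mutant, 17.3 ± 0.905 in induced wild-type and 21.3 ± 0.359 in uninduced wild-type libraries. *Plxna1*, a plexin that pairs with neuropilins, had 21.5 ± 1.47, 21.8 ± 1.55, 19.7 ± 0.780 and 17.7 ± 1.23 CPM per kilobase in the same 4 groups. Thus *Unc5b* had rank 1 of 48 in 3 groups and rank 2 in induced wild-type libraries, where *Plxna1* had rank 1. *Sema6a*, a membrane-bound semaphorin, had rank 3 in both mutant groups, rank 9 in induced wild-type and rank 5 in uninduced wild-type libraries, at 12.1 ± 0.0649, 12.4 ± 0.811, 4.44 ± 0.329 and 7.09 ± 0.999 CPM per kilobase. *Plxnb1* and *Plxnb2*, receptors of class 4 semaphorins, had 11.8 ± 1.02 and 10.8 ± 0.688 CPM per kilobase in induced mutant libraries and 9.07 ± 0.0685 and 10.1 ± 0.975 in induced wild-type libraries. They had ranks 4 and 5 in both mutant groups, 4 and 3 in induced wild-type and 3 and 4 in uninduced wild-type libraries. In induced mutant libraries the means of this pair differed by less than the sum of their SDs.

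**Figure D1:**
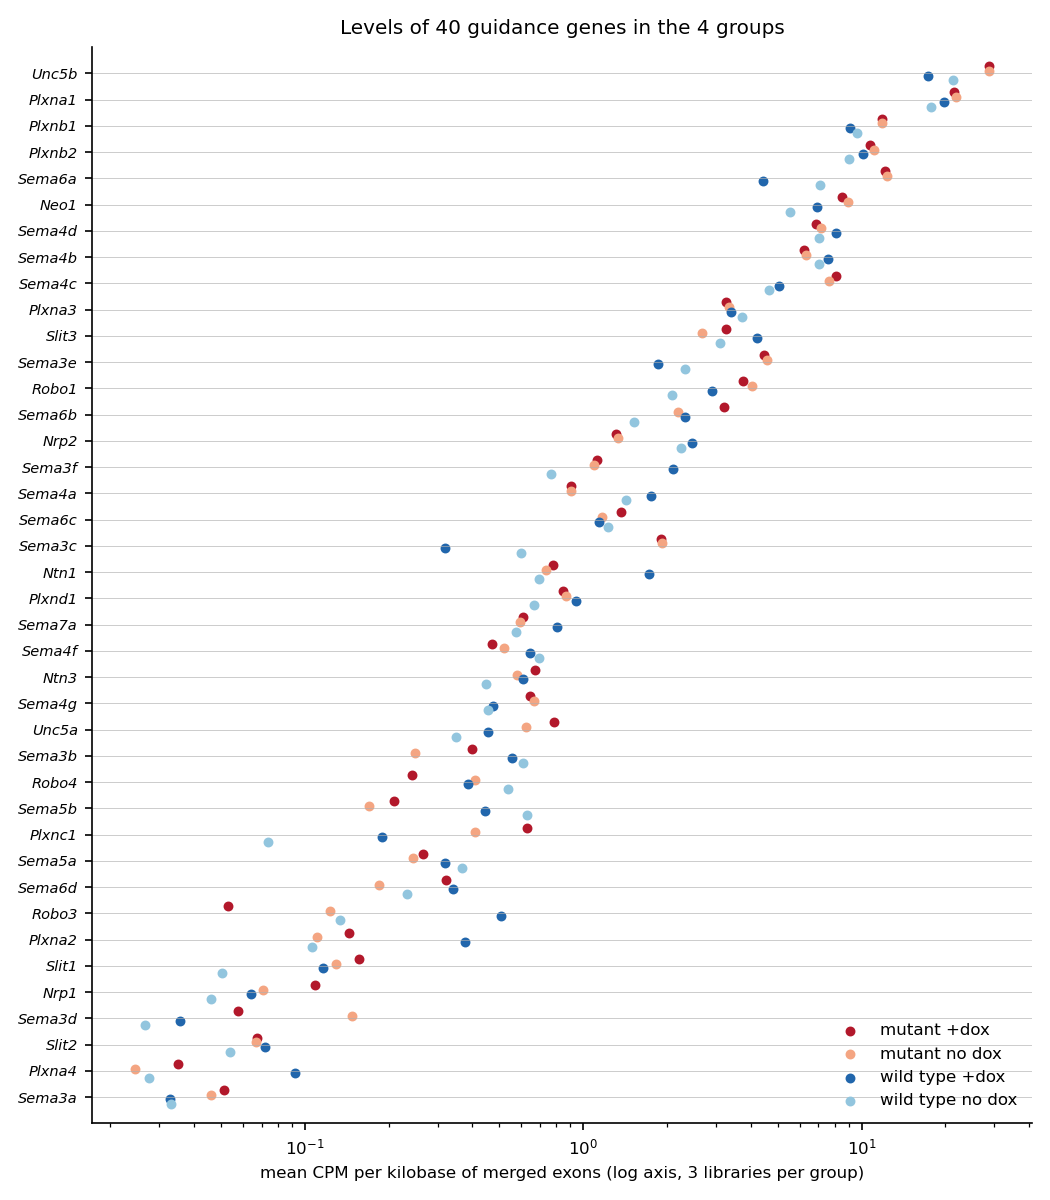
Mean level of the 40 guidance genes with at least 30 counts, in CPM per kilobase of merged exons on a log axis, with 1 point per group (3 libraries each; no error is drawn). *Unc5b* and *Plxna1* lie at the top, between 17.3 and 28.8, and the points of *Sema6a* and *Sema3c* spread apart by line.

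Doxycycline moved guidance genes in the wild-type line and none past the threshold in the mutant line. In the mutant line 0 of 34 tested members were called by edgeR's quasi-likelihood test at a Benjamini-Hochberg adjusted p under 0.05, beside 2 of all 12322 genes tested (0.0162%, both higher and 0% lower). *Lhx1*, the induced gene itself, was among those 2 (log2 fold change 9.11, SE 0.15, adjusted p = 4.55e-48). Unadjusted, 4 of the 34 had a p under 0.05, beside 578 of the 12322, and DESeq2 and limma-voom also called 0 members. The smallest adjusted p in that line was 0.805, for *Sema6b*, and 5 members (14.7%) had induced and uninduced libraries that did not overlap, beside 10.6% of all genes. In the wild-type line 9 of 34 were called (26.5%), beside 5.32% of all genes tested. The 7 that rose were *Robo3*, *Plxna2*, *Sema3f*, *Ntn1*, *Robo1*, *Slit3* and *Neo1*, and the share of all genes that rose was 2.76%. The 2 that fell were *Sema6a* and *Unc5b*, and the share of all genes that fell was 2.56%. Libraries with and without doxycycline did not overlap for 16 members (47.1%), beside 18.9% of all genes, and the median log2 fold change of the 34 was 0.16, beside −0.00 over all genes. All fold changes and differences below are log2 values from this test, with p-values adjusted in the same way. In bulk RNA, fewer cells of a type and less RNA per cell cannot be told apart, here and in all results below.

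By family, 3 of 4 tested Slits and Robos rose, and 2 of 5 tested netrins and receptors rose and 1 fell. In the same response 1 of 8 tested plexins and neuropilins rose, and of 17 tested semaphorins 1 rose and 1 fell. Of all genes tested, 2.76% rose and 2.56% fell. Among the family calls, that of *Slit3* was lost in 8 of 20 alternative settings, and those of *Robo3* and *Neo1* were each lost with DESeq2. The difference between the responses, mutant minus wild type, was called for 7 of 34 members (20.6%), beside 2.49% of all genes. It was positive for *Sema6a* and *Unc5b*, beside 1.09% of all genes, and negative for *Robo3*, *Sema3f*, *Ntn1*, *Robo1* and *Neo1*, beside 1.4% of all genes. *Plxna2* and *Slit3*, the other 2 genes called in the wild-type line, were not called for this difference.

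Sums over marker lists of other cell types differed between the groups as well, and whether such cells were present was not tested. Endothelial markers (6 of 7 with counts, *Emcn* at 0 throughout, *Cdh5* at 1 to 4 counts per group) summed to 26.7 to 33.1 CPM in induced mutant, 26.9 to 33.8 CPM in uninduced mutant, 45.5 to 58.2 CPM in induced wild-type and 52.1 to 57.8 CPM in uninduced wild-type libraries. Neural crest markers (all 6 with counts, *Sox10* at 2 to 6 counts per group) summed to 69.3 to 82.9, 71.8 to 73.4, 44.9 to 51.4 and 57.6 to 67.4 CPM in the same groups. Primitive endoderm markers, all 8 with counts, summed to 25.2 to 27.8, 23.3 to 33.5, 12.4 to 15.7 and 17.8 to 20.6 CPM. Without overlap, the neural crest and primitive endoderm sums, like those of the epiblast markers, were lower and the neuronal sum was higher in induced than in uninduced wild-type libraries, and the endothelial sums were lower in the mutant line. These sums do not stand for every gene of their lists. *Dnmt3b* and *Pou5f1* were the largest part of the epiblast sum. *Fgf5* averaged 159 CPM in induced and 86.4 CPM in uninduced wild-type libraries, and *Otx2* 118 and 115 CPM. The other epiblast markers averaged lower in induced ones. Of the primitive endoderm markers, *Gata6* had 6 counts in induced and 1 in uninduced wild-type libraries, and *Sox7* had 7 and 3. The others of that list averaged lower in induced ones, although *Sox17* had 4 counts and *Amn* 5 counts in each of these groups. *Foxd3* was the largest part of the neural crest sum, with 384 counts in induced and 673 in uninduced wild-type libraries. In the same groups *Ngfr* had 144 and 61 counts, *Tfap2a* 21 and 13 and *Tfap2b* 10 and 8. *Ets1* had 60 and 62 counts there and *Sox10* 2 and 6. *Tubb3* and *Stmn2* were the largest part of the neuronal sum, while *Elavl3* had 157 counts in induced and 223 in uninduced wild-type libraries. The endothelial sum was mostly *Pecam1*, at 18.3, 18.5, 38.6 and 39.8 CPM in induced mutant, uninduced mutant, induced wild-type and uninduced wild-type libraries, while *Kdr* averaged 2.83, 2.47, 2.33 and 1.37 CPM. The part of these cell types in the results was not tested.

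**Figure D2:**
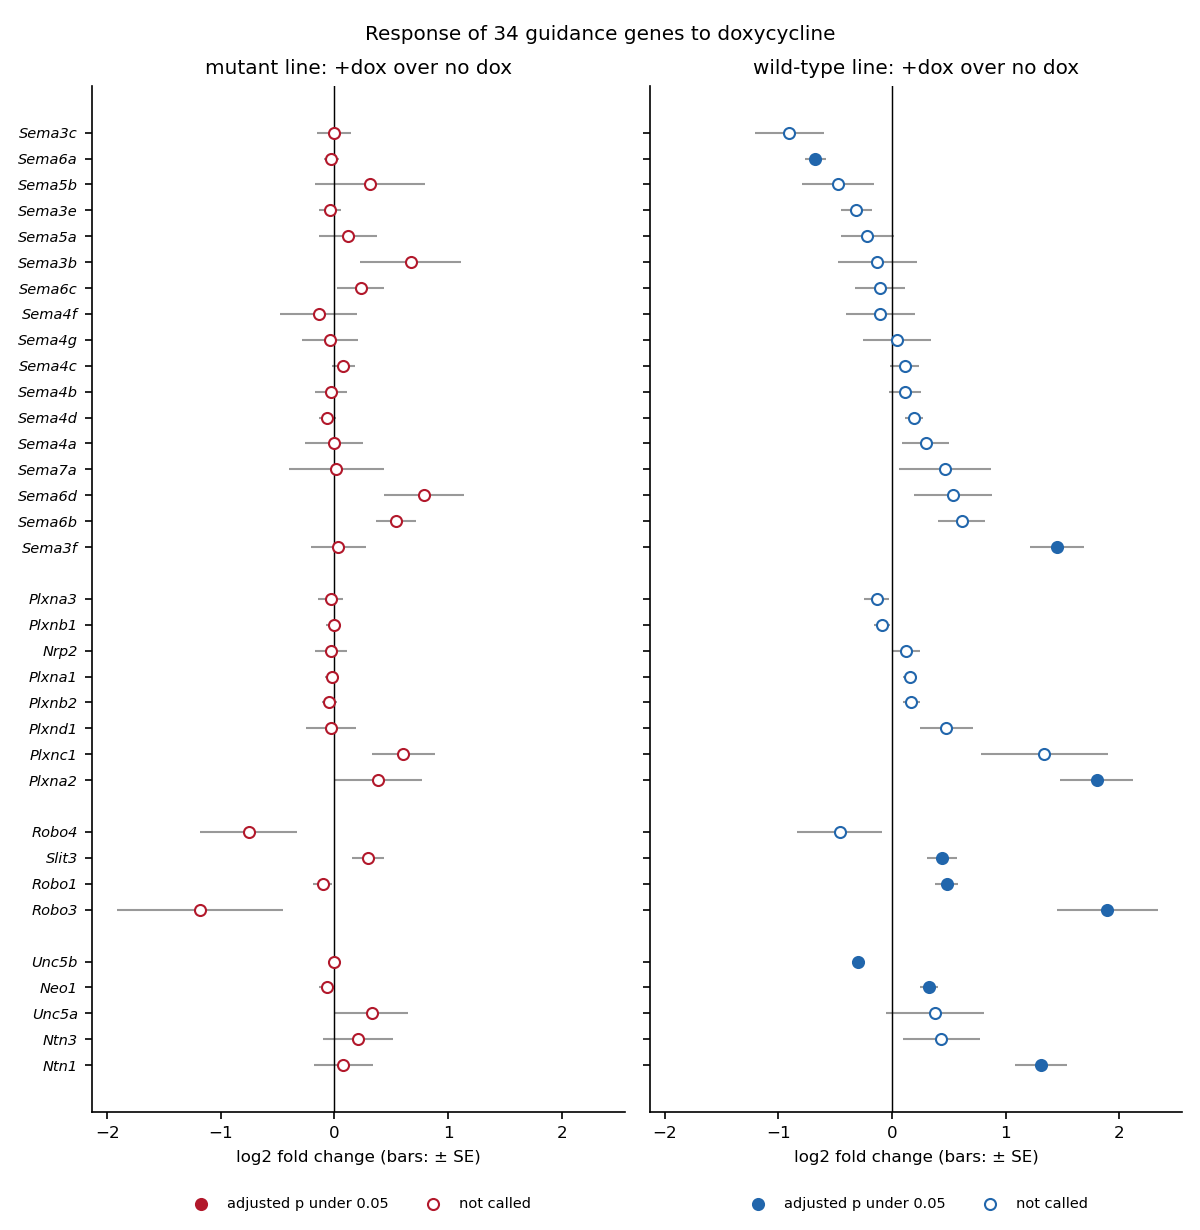
Log2 fold change of the 34 tested guidance genes with doxycycline over without it, in the mutant line (left) and the wild-type line (right), with bars of ± 1 SE and filled points for an adjusted p under 0.05. All points of the mutant line are open, and the wild-type line has 7 filled points above 0 and 2 below.

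The lines differed in many of these genes before induction, as they did across the table. Without doxycycline 17 of 34 members were called between mutant and wild type (50%), 12 higher in the mutant line and 5 lower, beside 45.5% of all genes (23% higher and 22.6% lower). The groups did not overlap for 18 members (52.9%), beside 51.8% of all genes. With doxycycline 19 of 34 were called (55.9%), 10 higher in the mutant line and 9 lower, beside 44.4% of all genes (21.9% higher and 22.4% lower). Here the groups did not overlap for 24 members (70.6%), beside 51.7% of all genes. The median log2 difference of the members was 0.19 without and −0.06 with doxycycline. Both shares of called members lie near the background and are not a result about these genes.

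**Figure D3:**
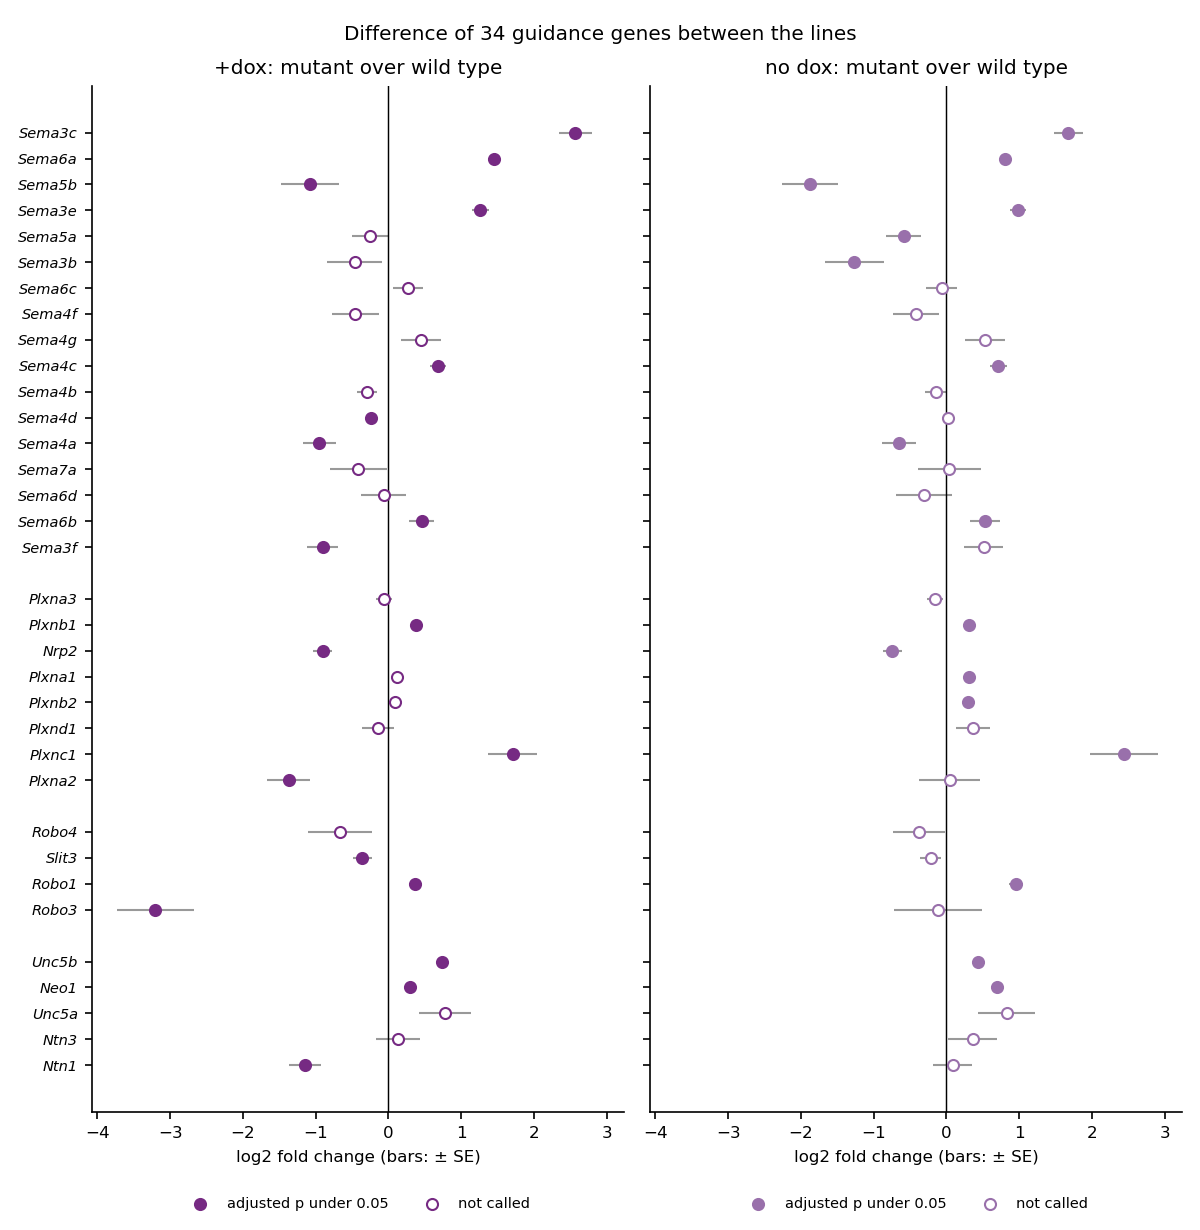
Log2 difference of the 34 tested guidance genes between the lines, mutant over wild type, with doxycycline (left) and without it (right), with bars of ± 1 SE and filled points for an adjusted p under 0.05. *Sema6a*, *Sema3c*, *Sema3e* and *Plxnc1* lie to the right in both panels, and *Robo3*, *Plxna2* and *Ntn1* are filled points left of 0 with doxycycline and open points without it.

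*Sema6a* (mm10, chromosome 18, 47235598 to 47368870, minus strand) encodes a transmembrane semaphorin that binds plexin-A2 and plexin-A4, and it was the member with the smallest adjusted p in 4 of the 5 comparisons. *Sema6a* had 106, 107 and 107 CPM in induced mutant libraries, 111, 114 and 100.3 in uninduced mutant libraries, 40.9, 40.4 and 35.7 in induced wild-type libraries and 70.9, 62.4 and 53.3 in uninduced wild-type libraries. Mutant libraries lay together at about 100 to 114 CPM, uninduced wild-type libraries below them, and induced wild-type libraries below those, with no overlap between these 3 levels. Doxycycline left a log2 fold change of −0.03 (SE 0.07) in the mutant line, while in the wild-type line *Sema6a* fell by 0.67 (SE 0.09, adjusted p = 1.14e-07). The responses of the lines differed by 0.65 (SE 0.11, adjusted p = 9.39e-05), mutant minus wild type. Mutant exceeded wild type by 1.45 (SE 0.08, adjusted p = 1.61e-21) with and 0.80 (SE 0.07, adjusted p = 2.82e-13) without doxycycline. All these calls held in every alternative setting tried. *Sema6b* is a relative of *Sema6a* of the same class. *Sema6b* had 12.9, 13.7 and 11.5 CPM in induced mutant libraries, 9.02, 7.33 and 9.84 in uninduced mutant libraries, 11, 7.6 and 9.13 in induced wild-type libraries and 5.47, 5.65 and 6.95 in uninduced wild-type libraries. Induced libraries lay above uninduced ones in both lines without overlap, yet the log2 fold changes of 0.54 (SE 0.17, adjusted p = 0.805) in the mutant and 0.61 (SE 0.21, adjusted p = 0.0768) in the wild-type line were not called. The wild-type response was called without induced wild-type library 2 (log2 fold change 0.73, adjusted p = 0.0442) and with both libraries that stood apart left out (0.84, 0.0359). *Sema6b* was higher in the mutant line with doxycycline, by 0.46 (SE 0.17, adjusted p = 0.0295), and without it, by 0.53 (SE 0.21, adjusted p = 0.034). The call with doxycycline was lost when any one of induced mutant libraries 1 and 2 and induced wild-type libraries 2 and 3 was left out (adjusted p = 0.0678 to 0.153), and with both libraries that stood apart left out (0.144) and with DESeq2 (0.13). The one without doxycycline was lost when any one of uninduced mutant libraries 1 and 3 and uninduced wild-type libraries 1 and 2 was left out (adjusted p = 0.0808 to 0.135), and with DESeq2 (0.113).

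Among the secreted class 3 semaphorins, *Sema3f* (chromosome 9, 107681500 to 107710475, minus strand), a repellent that acts through neuropilin-2, rose with wild-type induction. *Sema3f* had 6.58, 5.77 and 5.15 CPM in induced mutant libraries, 5.8, 5.9 and 5.35 in uninduced mutant libraries, 13.9, 9.5 and 9.35 in induced wild-type libraries and 4.76, 2.26 and 4.93 in uninduced wild-type libraries. The induced wild-type libraries lay above all 9 others, the mutant groups overlapped, and the uninduced wild-type libraries lay below them. The log2 fold change was 0.03 (SE 0.24) in the mutant line and 1.45 (SE 0.23, adjusted p = 8.70e-06) in the wild-type line. For *Sema3f* the responses differed by −1.42 (SE 0.34, adjusted p = 0.00798), and its call was lost without uninduced wild-type library 2 (adjusted p = 0.0681), and with DESeq2 (0.0775). With doxycycline *Sema3f* was lower in the mutant line, at a log2 difference of −0.91 (SE 0.21, adjusted p = 3.67e-04). Its co-receptor *Nrp2* separated the lines instead. *Nrp2* had 14.3, 17.1 and 15.2 CPM in induced mutant libraries, 17.2, 16.5 and 13.9 in uninduced mutant libraries, 24.7, 32.5 and 30 in induced wild-type libraries and 27.8, 23.7 and 28.2 in uninduced wild-type libraries. The mutant libraries all lay below the wild-type ones, with log2 differences of −0.90 (SE 0.13, adjusted p = 5.31e-08) with doxycycline and −0.74 (SE 0.13, adjusted p = 4.22e-06) without it, and the response in the wild-type line was 0.13 (SE 0.12, not called).

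*Sema3c*, a class 3 semaphorin known from heart outflow tract development, and *Sema3e*, the ligand of plexin-D1, were higher in the mutant line. *Sema3c* had 15.6, 12.4 and 13 CPM in induced mutant libraries, 14, 13.8 and 13.3 in uninduced mutant libraries, 2.29, 2.14 and 2.39 in induced wild-type libraries and 4.28, 3.84 and 4.71 in uninduced wild-type libraries. No mutant library came near a wild-type one, and within the wild-type line the induced libraries lay below the uninduced ones. The mutant line was higher by 2.57 (SE 0.23, adjusted p = 4.25e-14) with doxycycline and by 1.67 (SE 0.20, adjusted p = 3.76e-10) without it. Within the wild-type line the log2 fold change of −0.90 (SE 0.30) missed the threshold at an adjusted p of 0.0705. *Sema3e* had 41.7, 43.6 and 39.1 CPM in induced mutant libraries, 45.3, 45.8 and 36.6 in uninduced mutant libraries, 14.9, 18.3 and 18.7 in induced wild-type libraries and 22.4, 19.9 and 22.2 in uninduced wild-type libraries. The same order of groups was seen, with mutant libraries above uninduced wild-type and these above induced wild-type libraries. The mutant line was higher by 1.26 (SE 0.12, adjusted p = 1.37e-13) with and by 0.99 (SE 0.11, adjusted p = 7.02e-11) without doxycycline, while the wild-type response of −0.31 (SE 0.13) was not called. *Sema3d*, which lies on chromosome 5 as these genes do, was too low to test, with 18 counts in uninduced mutant and 3 counts in uninduced wild-type libraries, a ratio of 5.51 with a 95% exact counting interval of 1.61 to 29.2. The interval covers counting error only. *Sema3b* went the other way. *Sema3b* had 1.32, 2.56 and 1.85 CPM in induced mutant libraries, 1.07, 1.42 and 1.07 in uninduced mutant libraries, 1.83, 3.09 and 3.04 in induced wild-type libraries and 2.38, 3.62 and 2.69 in uninduced wild-type libraries. Without doxycycline the mutant libraries lay below the wild-type ones and the difference was −1.26 (SE 0.41, adjusted p = 0.00952), and with doxycycline the groups overlapped. The call was lost without uninduced wild-type library 2 (adjusted p = 0.0643).

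Class 4 semaphorins are membrane-bound ligands of B-class plexins, and *Sema4c* and *Sema4d* were among the better-covered ones. *Sema4c* had 33.5, 44.2 and 33.4 CPM in induced mutant libraries, 37.1, 33.8 and 34.4 in uninduced mutant libraries, 21.9, 24.7 and 22.8 in induced wild-type libraries and 21.6, 19.7 and 22.9 in uninduced wild-type libraries. Every mutant library exceeded every wild-type library, by 0.68 (SE 0.11, adjusted p = 1.55e-06) with doxycycline and 0.71 (SE 0.12, adjusted p = 9.36e-07) without it. Of its merged exons 7.27% are shared with a gene on the opposite strand, so some of its counts may belong there. *Sema4d* had 51.5, 53.2 and 52.9 CPM in induced mutant libraries, 53.9, 54.1 and 56.7 in uninduced mutant libraries, 59.2, 63.7 and 63.3 in induced wild-type libraries and 54.2, 53.8 and 54.5 in uninduced wild-type libraries. The induced wild-type libraries of *Sema4d*, a ligand of plexin-B1, lay above all 9 others, but the wild-type response was 0.20 (SE 0.08, adjusted p = 0.151). The induced lines differed by −0.24 (SE 0.08, adjusted p = 0.00854), a call lost with DESeq2 (adjusted p = 0.0501). *Sema4a* had 4.17, 6.62 and 3.91 CPM in induced mutant libraries, 3.22, 6.11 and 5.35 in uninduced mutant libraries, 8.91, 9.98 and 9.57 in induced wild-type libraries and 7.14, 7.46 and 8.52 in uninduced wild-type libraries. Mutant libraries of *Sema4a*, also known from immune cells, lay below wild-type ones at either treatment, with log2 differences of −0.95 (SE 0.22, adjusted p = 3.93e-04) with doxycycline and −0.65 (SE 0.23, adjusted p = 0.0193) without it. The second call was lost when any one of uninduced mutant library 1 and uninduced wild-type library 3 was left out (adjusted p = 0.0758 to 0.166), and with both libraries that stood apart left out (0.0672) and with DESeq2 (0.0769). *Sema4b* had 38.1, 33.8 and 33.2 CPM in induced mutant libraries, 35.4, 29.7 and 42.1 in uninduced mutant libraries, 41.4, 45.8 and 41.5 in induced wild-type libraries and 49, 39.6 and 30.5 in uninduced wild-type libraries. *Sema4b* was called in no comparison, although the induced mutant libraries lay below the induced wild-type ones (−0.29, SE 0.14, adjusted p = 0.0992). Its adjusted p between the induced lines was 0.0218 without uninduced wild-type library 1, 0.0470 and 0.0416 without uninduced mutant library 2 or 3, and 0.0179 without uninduced wild-type library 3. It was 0.00993 with only the compared libraries fitted and 0.0137 with no filter on low counts. Between the uninduced lines the adjusted p of *Sema4b* was 0.0262 without uninduced wild-type library 3 and 0.0175 with both libraries that stood apart left out. *Sema4g*, uncalled as well, had 2.62, 2.49 and 6.72 CPM in uninduced wild-type libraries, and without library 3 the mutant exceeded the wild type by 1.16 on the log2 scale (adjusted p = 0.00194).

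The class 5 semaphorins *Sema5a* and *Sema5b*, transmembrane proteins with thrombospondin repeats, were called lower in the mutant line, *Sema5a* at 1 treatment. *Sema5b* had 0.658, 2.35 and 1.44 CPM in induced mutant libraries, 1.07, 0.814 and 1.71 in uninduced mutant libraries, 2.74, 2.38 and 4.35 in induced wild-type libraries and 5.23, 4.3 and 3.81 in uninduced wild-type libraries. Without doxycycline the lines were well separated, and with it the highest mutant and the lowest wild-type library nearly touched. The differences were −1.08 (SE 0.40, adjusted p = 0.0224) with doxycycline and −1.87 (SE 0.39, adjusted p = 6.18e-05) without it. The first call was lost when any one of induced mutant libraries 1 and 3 and induced wild-type library 3 was left out (adjusted p = 0.0594 to 0.188), and with DESeq2 (0.0823). *Sema5a* had 5.7, 5.13 and 4.12 CPM in induced mutant libraries, 4.08, 4.07 and 5.56 in uninduced mutant libraries, 5.94, 6.65 and 5.22 in induced wild-type libraries and 6.9, 5.2 and 8.52 in uninduced wild-type libraries. The groups overlapped at either treatment, and the call without doxycycline, −0.59 (SE 0.24, adjusted p = 0.0395), was lost when any one of uninduced mutant libraries 1 and 2 and uninduced wild-type libraries 1 and 3 was left out (adjusted p = 0.0746 to 0.242), and with both libraries that stood apart left out (0.228), with DESeq2 (0.137), with limma-voom (0.0535) and with no filter on low counts (0.0542). The remaining tested semaphorins, *Sema4f*, *Sema6c*, *Sema6d* and *Sema7a*, were called in no comparison and averaged 1.90 to 8.14 CPM per group.

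Plexins are the receptors of these ligands, and *Plxna2* (chromosome 1, 194618218 to 194816869, plus strand), which can bind *Sema6a*, was the one called in the wild-type response among the 8 tested plexins and neuropilins. Of those 8, 5 had an unadjusted p under 0.05 in that response, beside 1966 of all 12322 genes tested. *Plxna2* had 2.19, 2.99 and 2.27 CPM in induced mutant libraries, 2.58, 1.63 and 1.5 in uninduced mutant libraries, 5.94, 8.08 and 5.44 in induced wild-type libraries and 0.951, 1.58 and 2.91 in uninduced wild-type libraries. Induced wild-type libraries lay above all 9 others, whose ranges overlapped. The log2 fold change was 0.38 (SE 0.38, not called) in the mutant line and 1.80 (SE 0.32, adjusted p = 5.88e-05) in the wild-type line. The call in the wild-type line held in every setting tried. Mutant minus wild-type response was −1.42 (SE 0.52) and missed the threshold at an adjusted p of 0.163. With doxycycline the lines differed by −1.37 (SE 0.30, adjusted p = 1.28e-04). Thus in the wild-type line *Sema6a* fell and *Plxna2* rose in the same libraries.

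*Plxnc1*, the receptor of *Sema7a*, was low but separated the lines. *Plxnc1* had 5.92, 4.49 and 5.36 CPM in induced mutant libraries, 3.44, 4.27 and 2.57 in uninduced mutant libraries, 1.83, 0.95 and 1.96 in induced wild-type libraries and 0.951, 0.226 and 0.672 in uninduced wild-type libraries. All mutant libraries lay above all wild-type ones, by 1.70 (SE 0.34, adjusted p = 3.60e-05) with and 2.44 (SE 0.46, adjusted p = 1.72e-05) without doxycycline. The uninduced wild-type libraries held 8 counts of it in all. Its log2 fold change with induction was 0.61 (SE 0.28, adjusted p = 0.999) in the mutant and 1.34 (SE 0.56, adjusted p = 0.192) in the wild-type line, called in neither. *Plxna1* had 181, 194 and 208 CPM in induced mutant libraries, 194, 213 and 186 in uninduced mutant libraries, 174, 187 and 175 in induced wild-type libraries and 169, 148 and 164 in uninduced wild-type libraries. Uninduced mutant libraries exceeded uninduced wild-type ones by 0.30 (SE 0.06, adjusted p = 2.38e-05), and with doxycycline the lines overlapped (0.12, adjusted p = 0.0819). The adjusted p with doxycycline was 0.0304 without induced mutant library 1 and 0.0452 without induced wild-type library 2. Of the merged exons of *Plxna1*, 10.7% are shared with a gene on the opposite strand. *Plxnb1* had 103, 123 and 115 CPM in induced mutant libraries, 116, 116 and 111 in uninduced mutant libraries, 87.3, 86.2 and 87.4 in induced wild-type libraries and 86.1, 102 and 88.5 in uninduced wild-type libraries. *Plxnb1* was higher in the mutant line by 0.39 (SE 0.07, adjusted p = 3.93e-06) with and 0.30 (SE 0.07, adjusted p = 1.57e-04) without doxycycline, with no overlap. *Plxnb2* had 83.7, 88 and 77.5 CPM in induced mutant libraries, 88, 84.3 and 84.5 in uninduced mutant libraries, 69.5, 82.2 and 82.8 in induced wild-type libraries and 67.8, 67.4 and 73.1 in uninduced wild-type libraries. *Plxnb2*, through which *Sema4c* signals, was higher in the mutant line without doxycycline, by 0.30 (SE 0.07, adjusted p = 5.29e-04), and overlapped between the induced lines. *Plxna3* and *Plxnd1* were called in no comparison and averaged 25.7 to 29.4 and 4.88 to 6.86 CPM per group.

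Of the 3 tested Robo receptors *Robo1* and *Robo3* rose with wild-type induction, and so did the ligand *Slit3*. *Robo1* (chromosome 16, 72308306 to 73046095, plus strand) is the broadly expressed repulsive receptor of Slits. *Robo1* had 61.2, 61.7 and 63.2 CPM in induced mutant libraries, 69.6, 72.1 and 58.2 in uninduced mutant libraries, 43.9, 56.1 and 44.4 in induced wild-type libraries and 32.1, 31.9 and 39 in uninduced wild-type libraries. Mutant libraries lay highest, induced wild-type libraries next and uninduced wild-type libraries lowest, with no overlap between these 3 levels. Doxycycline gave a log2 fold change of −0.10 (SE 0.08, not called) in the mutant line and 0.48 (SE 0.10, adjusted p = 0.00116) in the wild-type line. Its responses in the 2 lines differed by −0.58 (SE 0.13, adjusted p = 0.00543), which held in every setting tried. The mutant line was higher by 0.37 (SE 0.09, adjusted p = 7.47e-04) with and by 0.95 (SE 0.10, adjusted p = 1.11e-11) without doxycycline. *Slit3* (chromosome 11, 35121224 to 35708507, plus strand) is a secreted Robo ligand. *Slit3* had 17.8, 19.9 and 21.8 CPM in induced mutant libraries, 18.7, 15.5 and 14.5 in uninduced mutant libraries, 25.4, 28.7 and 22.6 in induced wild-type libraries and 22.6, 16.1 and 17.9 in uninduced wild-type libraries. The wild-type response was 0.44 (SE 0.13, adjusted p = 0.0369), with the lowest induced and the highest uninduced library both at 22.6 CPM. That call was lost when any one of induced wild-type libraries 1 and 2 and uninduced wild-type libraries 2 and 3 was left out (adjusted p = 0.077 to 0.261), and with both libraries that stood apart left out (0.367), with DESeq2 (0.226), with limma-voom (0.0569) and with only the compared libraries fitted (0.0608). With doxycycline the lines differed by −0.36 (SE 0.13, adjusted p = 0.0205), a call lost when any one of induced mutant library 1 and induced wild-type library 2 was left out (adjusted p = 0.109 to 0.129), and with both libraries that stood apart left out (0.118) and with DESeq2 (0.086).

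*Robo3* (chromosome 9, 37415669 to 37433246, minus strand) lets commissural axons cross the midline, and in the mouse spinal cord its expression depends on the LIM homeodomain relatives of LHX1, Lhx2 and Lhx9. *Robo3* had 0.658, 0.427 and 0 CPM in induced mutant libraries, 0.644, 0.814 and 1.07 in uninduced mutant libraries, 3.66, 3.09 and 3.7 in induced wild-type libraries and 0.951, 0.452 and 1.34 in uninduced wild-type libraries. These are 5 counts in all induced mutant, 12 in uninduced mutant, 46 in induced wild-type and 12 in uninduced wild-type libraries. The induced wild-type libraries lay above all 9 others. Its log2 fold change was −1.19 (SE 0.73, not called) in the mutant line and 1.90 (SE 0.44, adjusted p = 0.00289) in the wild-type line, where the call was lost with DESeq2 (adjusted p = 0.0646). The difference between the responses, −3.08 (SE 0.87, adjusted p = 0.0359), was lost when any one of induced mutant libraries 2 and 3, uninduced mutant libraries 1, 2 and 3, induced wild-type libraries 1 and 3 and uninduced wild-type libraries 1 and 2 was left out (adjusted p = 0.0524 to 0.138), and DESeq2 gave no adjusted p for it. With doxycycline the lines differed by −3.20 (SE 0.53, adjusted p = 1.50e-06), which held in every setting tried. *Robo4*, an endothelial Robo, ends 553 bases from the end of *Robo3* on the other strand, and the sources used here do not say whether counting used strand. *Robo4* had 1.32, 1.92 and 0.618 CPM in induced mutant libraries, 1.93, 2.44 and 2.14 in uninduced mutant libraries, 2.29, 1.9 and 1.96 in induced wild-type libraries and 3.33, 2.94 and 2.24 in uninduced wild-type libraries. It was called in no comparison, with log2 fold changes of −0.76 (SE 0.42) in the mutant and −0.46 (SE 0.37) in the wild-type line.

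The promoters of the 2 members with the largest wild-type responses are shown with the homeodomain letters they hold. The letters TAATTA, and TAATGA or its reverse complement TCATTA, which many homeodomain proteins can bind, were searched on both strands of the 250 bases before each start in RefSeq's promoter table (GRCm38.p6), in which 39 of 48 members had 52 entries. TAATTA, which reads the same on both strands, stood in 1 of the 52 (1.92%), that of *Robo3*, beside 4.84% of 32851 promoters. TAATGA or TCATTA stood in 3 of the 52 (5.77%), those of *Plxna2*, *Plxnb1* and *Sema4d*, beside 8.59%. No member promoter held both kinds. Those of *Robo1*, *Slit3*, *Neo1* and *Unc5b*, also called in the wild-type response, held neither. *Sema6a*, *Sema3f*, *Ntn1* and *Plxna1* were not among the matched members. The stretch for *Robo3* is chr9:37433247-37433425 on the minus strand, 250 to 72 bases before the start, with TAATTA in capitals at 101 to 96 bases before it. The other 71 bases of that window lie in annotated exons of *Robo3* and are not printed, so the GENCODE start of the gene lies nearer these letters. The stretch for *Plxna2* is chr1:194619766-194619795 on the plus strand, 63 to 34 bases before the start, with TAATGA in capitals at 51 to 46 bases before it, and it lies in an exon of another annotated transcript of the gene. A match is a description of letters only.
Robo3: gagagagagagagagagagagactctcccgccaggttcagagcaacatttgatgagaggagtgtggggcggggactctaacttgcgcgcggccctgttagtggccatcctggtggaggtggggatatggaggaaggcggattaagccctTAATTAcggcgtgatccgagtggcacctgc
Plxna2: cggcctctatgaTAATGAgctgagcggtaa

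In the netrin family the ligand *Ntn1* and the receptor *Neo1* rose and the receptor *Unc5b* fell with wild-type induction. *Ntn1* (chromosome 11, 68209364 to 68400823, minus strand) encodes netrin-1. *Ntn1* had 4.6, 4.7 and 5.36 CPM in induced mutant libraries, 3.44, 6.31 and 4.06 in uninduced mutant libraries, 11.2, 10.7 and 10.7 in induced wild-type libraries and 5.0, 2.71 and 5.38 in uninduced wild-type libraries. The induced wild-type libraries stood near 11 CPM, above all 9 others. The log2 fold change was 0.08 (SE 0.26, not called) in the mutant line and 1.31 (SE 0.23, adjusted p = 3.19e-05) in the wild-type line. Responses of *Ntn1* differed by −1.23 (SE 0.35, adjusted p = 0.0385), and its call was lost when any one of induced mutant libraries 1 and 2, uninduced mutant library 2, induced wild-type libraries 1, 2 and 3 and uninduced wild-type library 2 was left out (adjusted p = 0.0514 to 0.298), and with DESeq2 (0.249) and with limma-voom (0.0745). With doxycycline the lines differed by −1.14 (SE 0.22, adjusted p = 1.73e-05), and this call and that of the wild-type response held in every setting tried.

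*Unc5b* (chromosome 10, 60762593 to 60831581, minus strand) is a netrin receptor of the dependence type, which can trigger cell death when its ligand is missing. *Unc5b* had 172, 179.7 and 189 CPM in induced mutant libraries, 176, 178 and 186 in uninduced mutant libraries, 114, 108 and 103 in induced wild-type libraries and 136, 132 and 132 in uninduced wild-type libraries. Mutant libraries lay highest, uninduced wild-type libraries next and induced wild-type libraries lowest, without overlap. The log2 fold change was −0.00 (SE 0.05) in the mutant line, and in the wild-type line *Unc5b* fell by 0.29 (SE 0.06, adjusted p = 4.00e-04). Mutant minus wild type, the responses differed by 0.29 (SE 0.08, adjusted p = 0.0264), and its call was lost when any one of induced mutant libraries 2 and 3, uninduced mutant libraries 1 and 2, induced wild-type libraries 2 and 3 and uninduced wild-type library 1 was left out (adjusted p = 0.0514 to 0.122), and with DESeq2 (0.16). The mutant line was higher by 0.73 (SE 0.06, adjusted p = 3.19e-16) with and by 0.44 (SE 0.06, adjusted p = 2.46e-09) without doxycycline. *Neo1* (chromosome 9, 58874687 to 59036441, minus strand) encodes neogenin, a receptor of netrins and of repulsive guidance molecules. *Neo1* had 77.6, 68.4 and 77.1 CPM in induced mutant libraries, 77.1, 77.1 and 79.1 in uninduced mutant libraries, 57.4, 62.5 and 61.3 in induced wild-type libraries and 49.95, 46.8 and 47.7 in uninduced wild-type libraries. Mutant libraries lay highest, induced wild-type libraries next and uninduced wild-type libraries lowest, without overlap. For *Neo1* the log2 fold change was −0.07 (SE 0.07, not called) in the mutant line and 0.33 (SE 0.08, adjusted p = 0.0052) in the wild-type line, where the call was lost with both libraries that stood apart left out (adjusted p = 0.0766) and with DESeq2 (0.0501). The difference between the responses was −0.39 (SE 0.11, adjusted p = 0.0264), a call lost when any one of induced mutant library 2, uninduced mutant libraries 2 and 3, induced wild-type libraries 2 and 3 and uninduced wild-type libraries 2 and 3 was left out (adjusted p = 0.0508 to 0.122), and with both libraries that stood apart left out (0.117) and with DESeq2 (0.222). The mutant line was higher by 0.30 (SE 0.07, adjusted p = 6.49e-04) with and by 0.69 (SE 0.08, adjusted p = 3.89e-11) without doxycycline. *Ntn3* and *Unc5a*, the other tested members, were called in no comparison and averaged 1.45 to 3.42 CPM per group, and *Dcc*, the classical netrin-1 receptor, had 6 counts in all 12 libraries.

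**Figure D4:**
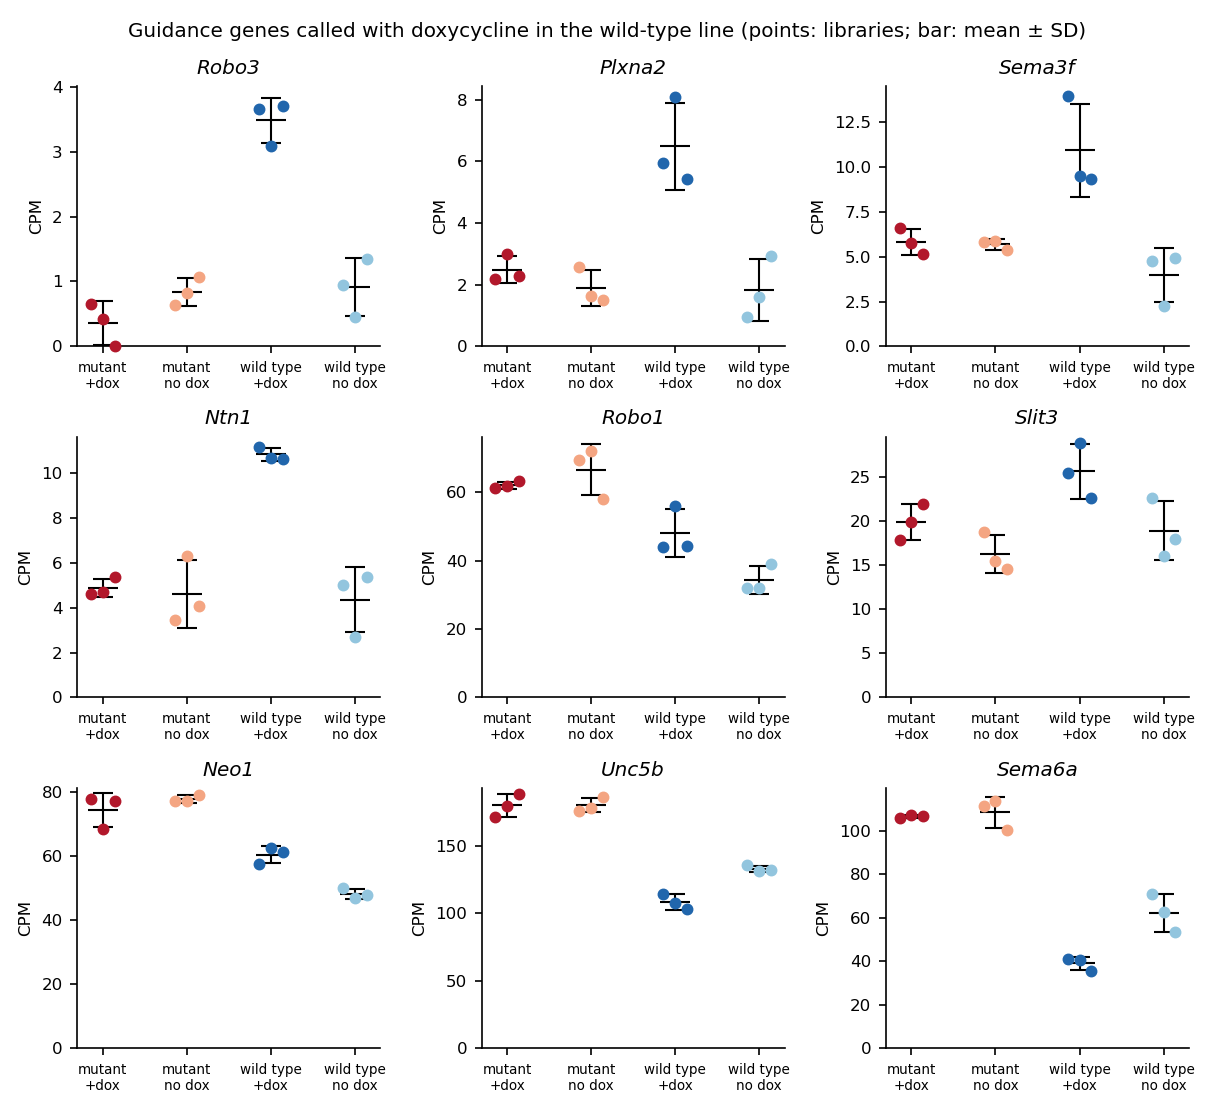
CPM of the 9 guidance genes called with doxycycline in the wild-type line, with 1 point per library, the mean and ± 1 SD (n = 3 per group), mutant groups left of wild-type groups. For *Robo3*, *Plxna2*, *Sema3f* and *Ntn1* the induced wild-type libraries stand above all others, and for *Sema6a* and *Unc5b* they stand below all others.

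The counts of the 6 members that had at least 30 counts but were not tested, *Nrp1*, *Plxna4*, *Sema3a*, *Sema3d*, *Slit1* and *Slit2*, were 31 to 90 in all. *Plxna4*, the other plexin that binds *Sema6a*, had 7 counts in induced mutant, 5 in uninduced mutant, 17 in induced wild-type and 5 in uninduced wild-type libraries. *Slit2* had 24, 24, 24 and 18 counts in the same groups, and *Nrp1* had 15, 10, 8 and 6. The 8 members under 30 counts, *Dcc*, *Ntn4*, *Ntn5*, *Plxnb3*, *Robo2*, *Sema3g*, *Unc5c* and *Unc5d*, had 5 to 21 counts in all. *Robo2*, a Slit receptor, had 1 count in induced mutant, 5 in uninduced mutant, 11 in induced wild-type and 2 in uninduced wild-type libraries. With no filter on low counts *Robo2* was called lower in the induced mutant than in the induced wild-type line (−3.13, adjusted p = 0.0227), and *Sema3d* was called higher in the uninduced mutant than in the uninduced wild-type line (2.33, adjusted p = 0.0179). These fitted values rest on few counts.

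Other genes of the same pathways were read from a list of 102 co-receptors, ligands, matrix partners and intracellular effectors, of which 100 were in the table and 86 were tested. In the mutant response 0 of 86 were called by edgeR, DESeq2 or limma-voom. By edgeR 5 of the 86 had an unadjusted p under 0.05, beside 578 of all 12322 genes tested. In the wild-type response 8 rose and 1 fell (10.5%), beside 2.76% of all tested genes called higher and 2.56% called lower. The 9 were 6 of 24 tested co-receptors, ligands and matrix partners (25%) and 3 of 62 tested effectors (4.84%), the effectors being near the 5.32% called over all genes. The median log2 fold change of the 86 was 0.03. The smallest adjusted p belonged to *Dapk1*, a kinase that carries the death signal of *Unc5b*, which averaged 119 ± 3.0 CPM in induced mutant, 128 ± 3.89 CPM in uninduced mutant, 164 ± 1.55 CPM in induced wild-type and 84 ± 8.53 CPM in uninduced wild-type libraries (SD, n = 3 each). It rose by 0.97 (SE 0.06, adjusted p = 1.67e-18) in the wild-type line, where *Unc5b* fell, and the difference between the responses was −1.07 (SE 0.09, adjusted p = 6.78e-14). *Lrig3*, a leucine-rich repeat protein, rose by 0.64 (SE 0.09, adjusted p = 1.01e-06), and *Itga1*, a collagen-binding integrin subunit, by 1.66 (SE 0.39, adjusted p = 0.0028). *Myo10*, a myosin of filopodia, fell by 0.32 (SE 0.05, adjusted p = 1.48e-05). *Dag1*, dystroglycan, which binds Slits, rose by 0.19 (SE 0.05, adjusted p = 0.0105), a call lost when any one of induced wild-type libraries 2 and 3 and uninduced wild-type library 2 was left out (adjusted p = 0.0645 to 0.0941), and with DESeq2 (0.060). *Crmp1*, a collapsin response mediator, rose by 0.26 (SE 0.07, adjusted p = 0.0123), a call lost when any one of induced wild-type libraries 1 and 2 and uninduced wild-type library 1 was left out (adjusted p = 0.0645 to 0.0935), and with both libraries that stood apart left out (0.078) and with DESeq2 (0.0866). The difference between the responses was called for 4 of 86 partners (4.65%, beside 2.49% of all tested genes, 1.4% being negative), *Dapk1*, *Lrig3* (−0.76), *Itga1* (−2.13) and *Flt1* (−1.31), all negative. Of these, *Itga1* was lost without uninduced wild-type library 1 (adjusted p = 0.0555), and with DESeq2 (0.0796), and *Flt1*, a VEGF receptor, was lost when any one of induced mutant libraries 1 and 2, uninduced mutant libraries 1, 2 and 3, induced wild-type libraries 1, 2 and 3 and uninduced wild-type libraries 1 and 2 was left out (adjusted p = 0.0562 to 0.226), and with DESeq2 (0.216).

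Between the induced lines 38 of 86 partners were higher and 9 lower in the mutant (54.7%, median log2 difference 0.21), beside 44.4% of all tested genes called, 21.9% higher and 22.4% lower. Between the uninduced lines 42 were higher and 9 lower (59.3%, median 0.26), beside 45.5% of all tested genes, 23% higher and 22.6% lower. *Dpysl3*, a collapsin response mediator protein that acts on the cytoskeleton of growth cones, showed the largest named difference, 1.86 (SE 0.14, adjusted p = 7.18e-17) with and 2.07 (SE 0.14, adjusted p = 2.28e-18) without doxycycline. Its relative *Dpysl5* differed by 0.62 (SE 0.08) and 0.59 (SE 0.08) under the same conditions. The actin regulators *Vasp* and *Pak1* were higher in the mutant line by 0.69 (SE 0.06) and 0.58 (SE 0.07) with doxycycline, and by 0.66 (SE 0.06) and 0.60 (SE 0.07) without it. *Abl1*, a kinase downstream of Robo receptors, was higher in the mutant line with doxycycline by 0.54 (SE 0.07, adjusted p = 7.10e-10). Uninduced mutant libraries also lay above uninduced wild-type ones for *Abl1*, without overlap, averaging 103.47 and 86.65 CPM. *Itgb1*, a receptor of *Sema7a*, was higher in the mutant line without doxycycline by 0.33 (SE 0.05, adjusted p = 3.36e-08). Induced mutant libraries likewise lay above induced wild-type ones for *Itgb1*, without overlap, averaging 309.95 and 270.47 CPM. *Dapk1* changed sides, being higher in the mutant line without doxycycline, by 0.61 (SE 0.06, adjusted p = 9.51e-12), and lower with it, at −0.46 (SE 0.06, adjusted p = 3.02e-09). Among the members *Ntn1*, *Plxna2*, *Robo3*, *Sema3f*, *Sema4d* and *Slit3* were called lower in the mutant line with doxycycline and were not called without it. For *Plxna2*, *Sema4d* and *Slit3* the difference between the responses was not called.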

How the data were processed

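The authors deposited 1 table of raw counts of reads per gene symbol for 12 libraries. Per the submitters' processing notes, Trimmomatic 0.33, TopHat2 2.1.1, the mm10 genome and limma were used. The sources used here name no counting tool or annotation and do not say whether counting used strand, so genes that share exons can share counts. Groups came from the sample titles.

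Differences were tested with the quasi-likelihood test of edgeR 4.0.16 (R 4.3.3), run on the deposited counts, scaled by TMM and filtered by filterByExpr (minimum count 10, total 15), with robust estimation and 1 mean per group over all 12 libraries. It ran on 12322 genes holding 99.8% of the counts, and p-values were adjusted over all of them by Benjamini-Hochberg within each of 5 comparisons, with calls under 0.05. The code was tested on simulated data. SE comes from the F statistic, as the size of the log2 fold change over its square root. Alternatives were DESeq2 1.42.0, limma-voom (limma 3.58.1), other scalings, no filter, a replicate block, only the compared libraries, and leaving out libraries. Pairs of replicates all differed beyond sampling noise (lowest chi-square per degree of freedom 1.11). Gene positions and exon lengths came from GENCODE M21, promoters from RefSeq.

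Members called in any comparison, and uncalled members among the 3 highest-count genes of their family, are given in every library, and up to 6 called partners per comparison are named. *Sema4g*, *Sema3d*, *Plxna4*, *Slit2*, *Nrp1* and *Robo2* were given values outside that rule, after they were seen. The members and lists were chosen with earlier results of these data known.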

Additional observations from a re-analysis of the deposited data

Results flagged for a closer look

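For 7 guidance genes the response to doxycycline differed between the lines by edgeR's test of the difference itself, mutant minus wild type on the log2 scale (3 libraries per group). The difference was 0.65 for *Sema6a* and 0.29 for *Unc5b*, which fell in the wild-type line. It was −3.08 for *Robo3*, −1.42 for *Sema3f*, −1.23 for *Ntn1*, −0.58 for *Robo1* and −0.39 for *Neo1*, which rose there. None of the 7 was called in the mutant line. In uninduced libraries *Sema6a*, *Unc5b*, *Robo1* and *Neo1* already differed between the lines, and *Robo3*, *Sema3f* and *Ntn1* were not called there. *Sema6a* and *Robo1* kept their calls in all alternatives tried, and each of the other 5 lost its call in at least 1.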

How the results depend on the processing

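Of 52 calls of members in the 5 comparisons, 36 held in every alternative, 16 were lost in at least 1, and 0 changed direction. For each lost call the cause was not tested. The count of members whose responses differed between the lines was the least stable: 7 by edgeR, 2 by DESeq2 and 3 to 6 when any 1 library was left out, with 3 without library 2 of either mutant group, induced wild-type library 3 or uninduced wild-type library 2, and 4 without induced wild-type library 2. The wild-type response kept 8 to 9 called members when a library was left out, the mutant response 0, and the lines differed in 14 to 17 members without and 17 to 20 with doxycycline. DESeq2 called 4 of the partners in the wild-type response and 2 for the difference between responses, where edgeR called 9 and 4. Leaving out 1 library gave 5 to 10 and 2 to 5 partners for these comparisons, with 5 without uninduced wild-type library 2 and 2 without uninduced wild-type library 1. Over the whole table DESeq2 called 380 genes in the wild-type response and 153 for the difference, against 655 and 307 by edgeR, and a fit of only the mutant libraries called 5 genes, against 2. Same-numbered libraries of different groups correlated between −0.06 and 0.08 in their deviations, so the numbers were not taken to pair them, and with the replicate block 9, 0, 7, 17 and 19 members were called in the wild-type response, the mutant response, their difference, and between the lines without and with doxycycline. At this depth members such as *Robo3*, *Plxnc1* and *Sema5b* rest on few counts, and their fold changes carry wide errors.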
